A study of Homo sapiens with 12 samples.

Results

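The MYC and MAX network was examined as 9 genes, MYC, MAX, MXD1, MXD3, MXD4, MXI1, MNT, MLX and MGA, chosen by their symbols and all found among the 26334 genes of the count tables. The libraries came from A549 cells, a human lung adenocarcinoma line, in which a lentivirus delivered either a nontargeting hairpin (shControl) or a hairpin that targets RNF113A (shRNF113A), followed by selection with puromycin at 1 µg/ml for 4 days. Cells of each kind were left untreated or received Cisplatin, a DNA cross-linking agent, which the sample labels give as 25 µg/ml for 20 h. The study gives the Cisplatin dose of its other experiments in molar units, so the mass unit in the labels is uncertain. There were 3 biological replicates in each of the 4 conditions, 12 libraries in all, and the labels do not say which hairpin against RNF113A was used, so an effect of RNF113A loss and an effect of the hairpin cannot be told apart. RNF113A is an E3 ubiquitin ligase found in the spliceosome.

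MYC is a transcription factor that binds DNA as a heterodimer with MAX, at E-boxes, and activates genes for growth, metabolism and ribosome synthesis. The MXD proteins, MXI1 and MNT compete with MYC for MAX and, with SIN3 corepressors, repress genes through the same sites. MLX takes the place of MAX in a parallel branch that responds to glucose and includes MLXIP and MLXIPL, and MGA is a large MAX partner that joins a noncanonical Polycomb complex.

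The libraries held 33859097 to 56071514 read pairs, of which 77.4 to 86.0% fell on the strand of a gene. The 3 Cisplatin-treated shRNF113A libraries had the fewest pairs, 33859097 to 39414380. In these libraries 77.4 to 78.2% fell on the strand of a gene, against 81.1 to 86.0% in all others. The part of this difference in the results was not tested. RNF113A itself had a mean of 19.9 ± 0.397 reads scaled to library size as CPM (SD, n = 3) in untreated shControl cells and 15.98 ± 0.772 in untreated shRNF113A cells (log2 fold change −0.31 ± 0.09 SE, adjusted p = 0.0247, edgeR's quasi-likelihood test). In Cisplatin-treated cells it had 29.4 ± 1.95 and 26.7 ± 2.88 CPM, and that difference did not pass the test (−0.14 ± 0.09, adjusted p = 0.233). The shRNF113A cells thus held most of the RNF113A reads of the control cells, and depletion is used below as the name of the condition. The shControl libraries of replicate number 2 stood apart in both conditions, with a chi-square per degree of freedom against the other replicates of 63.5 to 96, whereas the remaining pairs of shControl libraries had 8.17 and 11.9. Member calls that change without both of these libraries are given with and without them. Summed epithelial and A549 markers lay between 5359 and 18270 CPM, fibroblast markers between 6.03 and 35.9, and endothelial markers between 0.0276 and 0.788. The sum of 5 leukocyte markers, of which 3 had a mean under 1 CPM, was 30.6 to 41.5 CPM in shControl and 46.5 to 76.8 CPM in shRNF113A cells, and its part in the depletion results was not tested.

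Short sequences from the gene set are shown here because they mark features that the results return to. The canonical E-box CACGTG, which reads the same on both strands, was searched in RefSeq promoters (GRCh38.p14, 250 bases before to 50 after each start), and 3 of the 13 promoters listed for 8 members held it (23.1%), as did 7.26% of all 35116 promoters. A match is a description of letters and not of binding. The E-box is in capitals in the following stretches.
MLX, 50 bases before the start: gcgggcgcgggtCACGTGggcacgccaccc
MNT, 193 bases before the start: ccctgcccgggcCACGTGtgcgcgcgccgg
MXD4, 238 bases before the start: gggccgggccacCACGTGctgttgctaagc
The windows of MAX, MXD1, MXD3, MXI1 and MGA held no such letters.

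Cassette exons of 27 and 30 bases were among the tested events of MAX, MXI1 and MXD3. They were read from hg19 on the strand of the gene, and the lengths divide by 3, so their inclusion keeps the reading frame. The longest run shared at the same positions by the MXI1 and MXD3 exons, 8 bases, is in capitals, and 19 of their 30 bases were identical.
MAX exon, chr14:65568264-65568290, minus strand: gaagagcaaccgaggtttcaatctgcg
MXI1 exon, chr10:112004586-112004615, plus strand: atctacaCACAATGAgctggaaaagaatcg
MXD3 exon, chr5:176737669-176737698, minus strand: gtcagtgCACAATGAactggagaagcgcag

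Levels between genes were compared as exonic reads per kilobase of exon, scaled to the exonic reads of each library (RPKM). In untreated shControl cells MYC had the highest of these levels (37.6 ± 5.35, SD, n = 3), followed by MLX (26.95 ± 0.832), whose libraries did not overlap with those of MYC. MAX had 9.27 ± 1.47, which overlapped with MLXIP (9.44 ± 0.390), a glucose-responsive partner of MLX. MXD3 (6.09 ± 1.25), MXI1 (5.57 ± 0.835) and MNT (4.60 ± 0.389) followed, each overlapping with its neighbour in this order. MGA (3.23 ± 0.319) and MXD4 (2.96 ± 0.767) overlapped with each other and lay below MNT. MXD1 was the lowest member (0.355 ± 0.150), in the range of MYCL (0.726 ± 0.404). MYCN, the neuronal relative of MYC, had 0.0699 ± 0.0557 and was too low to be tested. MYC thus had the highest level of the 3 MYC family genes.

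The effect of Cisplatin was asked first, from the model with a term for the drug and a term for depletion. MXD1, MXD4 and MAX rose and MYC and MXD3 fell, so 5 of 9 members passed the test at an adjusted p under 0.05, where 66.8% of the 15352 genes tested passed. At a fold change of at least 2 there were 2 members, MXD1 and MXD4, against 21.5% of all genes. The median log2 fold change was 0.11 over the members and 0.03 over all genes. The share of members that passed was therefore no higher than that of all genes, and the sizes and directions of single members carry the description.

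**Figure D1:**
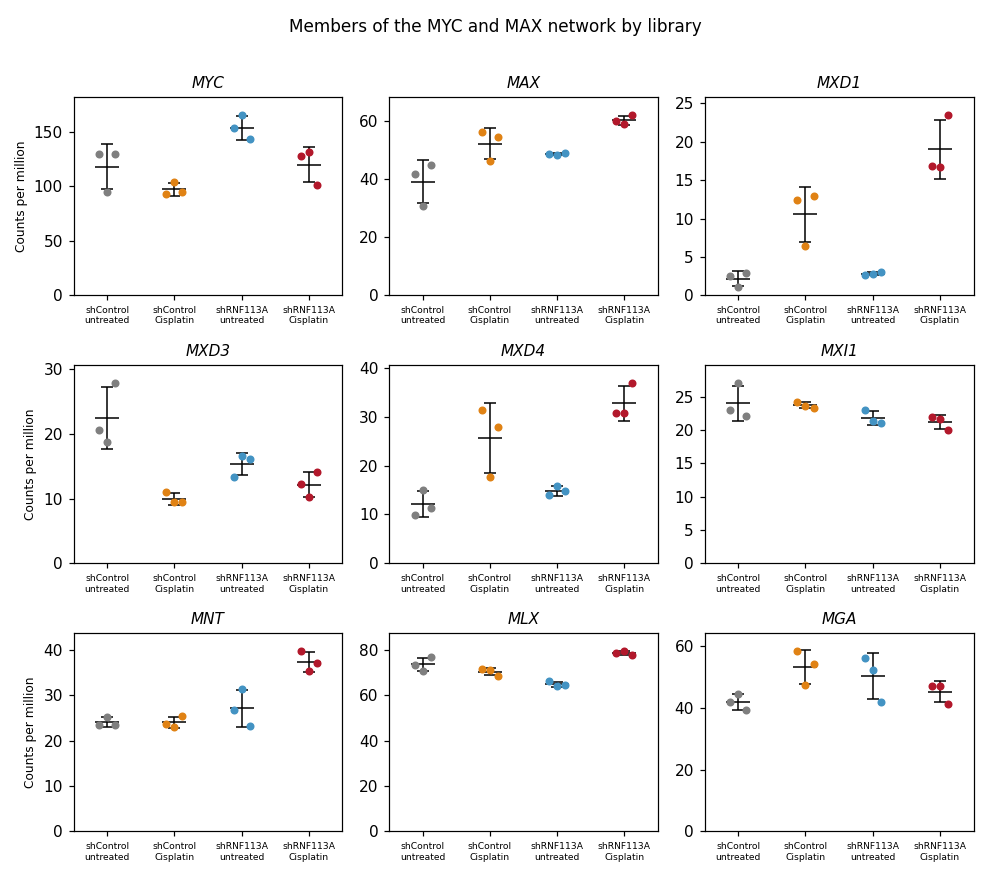
Level of each member as CPM (linear axes from 0) in the 12 libraries, by condition; points are libraries, and bars give the mean and SD of 3. MXD1 and MXD4 lie higher in all Cisplatin-treated libraries than in the untreated libraries of the same cells, MXD3 is highest in untreated shControl cells, and MYC is highest in untreated shRNF113A cells.

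MYC (hg19, chromosome 8) had 129, 94.3 and 130 CPM in untreated shControl cells and 92.8, 104 and 94.7 CPM with Cisplatin. In shRNF113A cells it had 153, 165 and 143 CPM without and 127, 131 and 101 CPM with Cisplatin. The groups overlapped in shControl cells, where the lowest untreated library was replicate 2, and did not overlap in shRNF113A cells. Over both kinds of cells MYC fell by 0.32 on the log2 scale (± 0.09 SE, adjusted p = 0.00626), and the call held in each of 12 omissions of single libraries. In shControl cells alone the change was −0.28 (± 0.13, adjusted p = 0.0841), with a 95% interval from −0.56 to 0.00, and without both replicate 2 libraries it was −0.47 (adjusted p = 0.000908). In shRNF113A cells MYC fell by 0.36 (± 0.13, adjusted p = 0.029), a call lost without untreated replicate 1 or 2 or Cisplatin replicate 3, the highest adjusted p being 0.129, and lost with scaling to library size (−0.26, adjusted p = 0.0858).

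MAX, the shared dimerization partner (chr14:65472892-65569413, minus strand), had 41.8, 30.9 and 44.9 CPM in untreated and 56.2, 46.2 and 54.6 CPM in Cisplatin-treated shControl cells. The shRNF113A libraries had 48.7, 48.4 and 48.9 CPM without and 60.0, 59.0 and 62.1 CPM with Cisplatin. All Cisplatin-treated libraries lay above the untreated libraries of the same cells. MAX rose by 0.36 ± 0.09 on the log2 scale (adjusted p = 0.00183). In shRNF113A cells alone the rise of 0.31 ± 0.12 (adjusted p = 0.0404) lost its call in 8 of 12 omissions of single libraries, with a highest adjusted p of 0.113, and was also lost with unstranded counts, median-ratio size factors, no filter on low counts and DESeq2.

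MXD1 (chr2:70124820-70170077, plus strand), a MYC antagonist known from differentiating cells, changed most. It had 2.57, 1.07 and 2.92 CPM in untreated shControl cells, from 93, 42 and 110 read pairs. With Cisplatin it had 12.4, 6.42 and 12.9 CPM, and in shRNF113A cells 2.62, 2.81 and 3.08 CPM without and 16.8, 16.8 and 23.5 CPM with Cisplatin. Replicate 2 was the lowest library of both shControl conditions, and treated and untreated libraries did not overlap in either kind of cells. MXD1 rose by 2.51 ± 0.24 on the log2 scale, or 5.71-fold (adjusted p = 6.60e-07), by 2.28 ± 0.34 in shControl cells (adjusted p = 0.000105) and by 2.75 ± 0.33 in shRNF113A cells (adjusted p = 1.86e-05). The size of this change was larger than that of 95.4% of all genes. In the reference annotation 7888 bases of MXD1 overlap with SNRNP27 on the same strand.

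MXD4 (chr4:2249159-2264021, minus strand), another MXD antagonist, had 9.95, 14.98 and 11.4 CPM in untreated and 31.4, 17.6 and 27.9 CPM in Cisplatin-treated shControl cells. In shRNF113A cells it had 13.9, 15.8 and 14.7 CPM without and 30.7, 30.7 and 36.8 CPM with Cisplatin. The groups did not overlap, and the shControl replicate 2 libraries lay closest to each other. MXD4 rose by 1.11 ± 0.14 on the log2 scale (2.16-fold, adjusted p = 7.32e-06).

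MXD3 (chr5:176728462-176739758, minus strand), which is known from proliferating cells in S phase, moved the other way. It had 20.7, 18.8 and 27.8 CPM in untreated and 11, 9.45 and 9.47 CPM in Cisplatin-treated shControl cells, which did not overlap. The shRNF113A libraries had 13.4, 16.6 and 16.1 CPM without and 12.2, 10.2 and 14.1 CPM with Cisplatin, and here the groups overlapped. MXD3 fell by 1.17 on the log2 scale in shControl cells (± 0.16, adjusted p = 6.53e-05), and in shRNF113A cells the change was −0.34 ± 0.16 (adjusted p = 0.0923), which passed without both shControl replicate 2 libraries (−0.34, adjusted p = 0.0338). The test of the difference between these effects gave 0.83 ± 0.23 with an adjusted p of 0.0612, and 0.91 with 0.00832 without both shControl replicate 2 libraries. MXD3 lies antisense to PRELID1 over 3151 bases and on the strand of RAB24 over 2284 bases, and in untreated shControl replicate 1 it had 748 read pairs on its strand, 10142 on the other strand and 732 in unstranded counts. Unstranded counting lowered MAX more, from 1514 to 1234 read pairs in that library, and MLX from 2656 to 2258.

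MXI1 (chr10:111967363-112047123, plus strand), also a SIN3-dependent antagonist, ranged from 20.1 to 27.01 CPM over all libraries and passed none of the 7 tests, although its difference upon depletion passed with median-ratio size factors and with DESeq2. Its Cisplatin effect was −0.03, with a 95% interval from −0.17 to 0.11. MNT (chr17:2287354-2304412, minus strand), the antagonist found in most proliferating cells, had 23.5, 25.3 and 23.4 CPM in untreated and 23.6, 23.1 and 25.5 CPM in Cisplatin-treated shControl cells. In shRNF113A cells MNT had 26.8, 31.4 and 23.3 CPM without and 39.7, 35.4 and 37.1 CPM with Cisplatin. The groups overlapped in shControl cells only. MNT rose by 0.46 ± 0.10 in shRNF113A cells (adjusted p = 0.00208), while in shControl cells its change was −0.00, with an interval from −0.23 to 0.23, and the difference between the effects did not pass the test (0.46 ± 0.15, adjusted p = 0.0951). Over both kinds of cells the MNT change of 0.23 ± 0.10 had an adjusted p of 0.0501, and 0.0106 without both shControl replicate 2 libraries. With scaling to library size MNT and MLX both passed, so that 7 of 9 members were called.

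MLX (chr17:40719086-40725257, plus strand) had 73.4, 70.7 and 76.6 CPM in untreated and 71.5, 71.2 and 68.4 CPM in Cisplatin-treated shControl cells. In shRNF113A cells it had 66.0, 63.9 and 64.6 CPM without and 78.7, 79.3 and 77.7 CPM with Cisplatin. The groups overlapped in shControl cells and lay apart in shRNF113A cells, where MLX rose by 0.28 ± 0.06 (adjusted p = 0.00146). In shControl cells the change was −0.06 ± 0.06 (adjusted p = 0.377). MLX was the 1 member that passed the test of the interaction between Cisplatin and depletion (0.34 ± 0.08, adjusted p = 0.0411), a test that 4.25% of all genes passed. That call held in 1 of 12 omissions of single libraries, with adjusted p up to 0.148, and was lost with unstranded counts, with both other scalings, without a filter on low counts and with the replicate block (adjusted p = 0.063).

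MGA (chr15:41913422-42062141, plus strand) had 41.9, 44.5 and 39.1 CPM in untreated and 58.2, 47.3 and 54.3 CPM in Cisplatin-treated shControl cells, which did not overlap. The shRNF113A libraries had 56.2, 52.3 and 41.8 CPM without and 47.1, 47.0 and 41.3 CPM with Cisplatin, which overlapped. MGA rose by 0.35 ± 0.12 in shControl cells (adjusted p = 0.0219), a call lost without untreated replicate 3 or Cisplatin replicate 1 (highest adjusted p 0.0783), and its change in shRNF113A cells was −0.15 ± 0.12 (adjusted p = 0.279). The difference between these effects was −0.50 ± 0.16 with an adjusted p of 0.103, and −0.63 with 0.00976 without both shControl replicate 2 libraries. Counted within each kind of cells, Cisplatin changed 5 of 9 members in shControl cells, against 55% of all genes, and 6 of 9 in shRNF113A cells, against 60.2%.

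**Figure D2:**
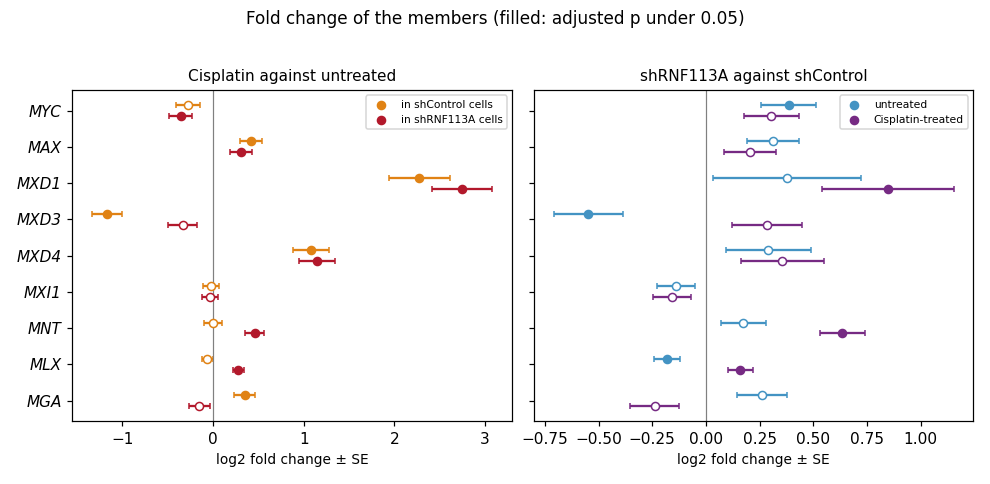
Log2 fold change ± SE of each member upon Cisplatin (left, in shControl and shRNF113A cells) and in shRNF113A against shControl cells (right, untreated and Cisplatin-treated), from edgeR's quasi-likelihood test on 12 libraries; filled points have an adjusted p under 0.05. The x axes of the panels differ in range. MXD1 has the largest Cisplatin effects, 2.28 and 2.75, and depletion effects lie between −0.55 and 0.85.

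The effect of RNF113A depletion was asked next. With both terms in the model, MYC, MAX, MXD1 and MNT were higher in shRNF113A cells, so 4 of 9 members passed, against 47.5% of all genes (23.5% in this direction), and none reached a 2-fold difference, as 11% of all genes did. The median log2 difference was 0.26 over the members and −0.00 over all genes. MYC was higher by 0.34 ± 0.09 (adjusted p = 0.00681) and MNT by 0.41 ± 0.10 (adjusted p = 0.00423), and both calls held in all 12 omissions of single libraries. MAX was higher by 0.26 ± 0.09 (adjusted p = 0.023) and MXD1 by 0.64 ± 0.23 (adjusted p = 0.0357). The call of MAX was lost in 3 of the 12 omissions and that of MXD1 in 7, and without both shControl replicate 2 libraries their differences were 0.14 (adjusted p = 0.0253) and 0.37 (adjusted p = 0.0368). MXD4 (0.32 ± 0.14, adjusted p = 0.0637) and MXI1 (−0.15 ± 0.07, adjusted p = 0.0747) missed the threshold, and MXD4 passed it without those 2 libraries (0.30, adjusted p = 0.015).

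In untreated cells 3 of 9 members differed upon depletion, against 27.4% of all genes. MYC was higher by 0.38 ± 0.13 (adjusted p = 0.0437), with all shRNF113A libraries above all shControl libraries, and by 0.25 without both replicate 2 libraries (adjusted p = 0.0449). MXD3 was lower by 0.55 on the log2 scale, a value of −0.55 ± 0.16 (adjusted p = 0.0238), and MLX had −0.18 ± 0.06 (adjusted p = 0.0391). Without both shControl replicate 2 libraries 5 members passed in untreated cells, with MXD4 (0.47, adjusted p = 0.00298) and MGA (0.31, adjusted p = 0.0282) higher besides. In Cisplatin-treated cells 3 of 9 members differed upon depletion, all of them higher in the fit to 12 libraries, against 42.9% of all genes and 21.1% that were higher. These were MNT (0.64 ± 0.10, adjusted p = 0.000561), MXD1 (0.85 ± 0.31, adjusted p = 0.0408) and MLX (0.16 ± 0.06, adjusted p = 0.0454). Without both shControl replicate 2 libraries 5 members passed, with MYC higher (0.35, adjusted p = 0.00493) and MGA lower (−0.32, adjusted p = 0.0164) besides. The MNT call held in 12 of 12 omissions of single libraries, that of MXD1 in 3 and that of MLX in 1, and the MLX call was also lost with unstranded counts, median-ratio size factors, no filter on low counts, DESeq2 and the replicate block. In untreated cells the MYC call held in 4 of 12 omissions, that of MXD3 in 9 and that of MLX in 5. The untreated MYC call was also lost with median-ratio size factors, and that of MLX with scaling to library size, no filter on low counts and the replicate block, under which MAX passed instead.

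The balance of the network was described from the levels per length, as MYC over the sum of MXD1, MXD3, MXD4, MXI1 and MNT, without a test. The ratio was 2.28, 1.5 and 2.04 in untreated and 1.31, 1.89 and 1.41 in Cisplatin-treated shControl cells, and these overlapped through the replicate 2 libraries. It was 2.80, 2.74 and 2.64 in untreated and 1.59, 1.74 and 1.16 in Cisplatin-treated shRNF113A cells, which lay apart. The summed level of the antagonists was 19.6 ± 1.76 and 22.1 ± 2.29 in shControl cells without and with Cisplatin, and 18.4 ± 1.23 and 28.4 ± 1.66 in shRNF113A cells. In shControl cells MXD3 made up 31.2 ± 5.89% of the sum without and 13.2 ± 1.34% with Cisplatin, whereas MXD4 made up 15.01 ± 2.79% and 29.3 ± 4.92%. MXD1 made up 1.85 ± 0.835% and 8.24 ± 2.04%, and in shRNF113A cells 2.55 ± 0.257% and 11.9 ± 1.59%. MXI1 made up 28.4 and 26.8% and MNT 23.5 and 22.4% in shControl cells, and in shRNF113A cells MXI1 made up 27.7 and 18.97% and MNT 28.55 and 27.1%.

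**Figure D3:**
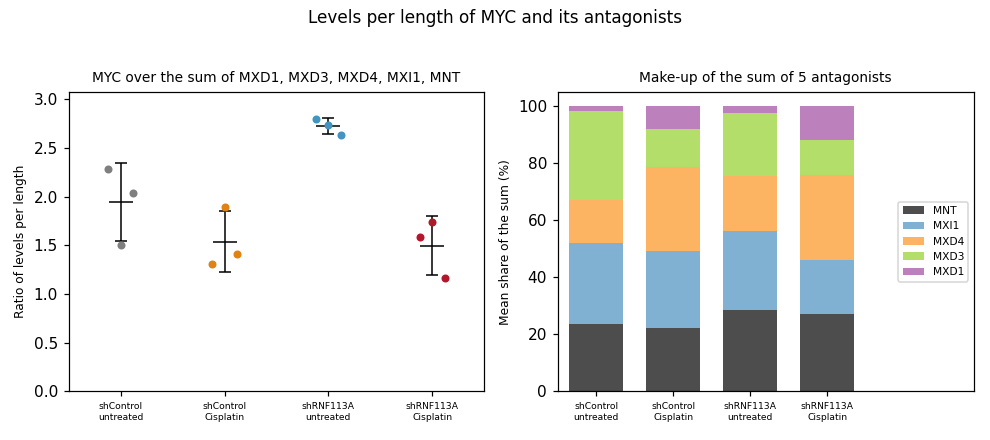
Left, the ratio of the MYC level per length to the summed level of 5 antagonists in each library, with the mean and SD of 3 libraries, and right, the mean share of each antagonist in that sum in percent, by condition. Untreated shRNF113A libraries have the highest ratios, 2.64 to 2.80, and the share of MXD3 is smaller and those of MXD4 and MXD1 larger with Cisplatin.

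Intronic reads were compared with exonic reads of the same gene, since RNF113A is a component of the spliceosome. MXD1 stood apart from the other members. Its intronic share was 64.5, 75.7 and 61.7% in untreated and 26.4, 26.5 and 31.7% in Cisplatin-treated shControl cells. In shRNF113A cells it was 56.0, 59.4 and 55.1% without and 27.4, 29.3 and 27.3% with Cisplatin. The groups lay apart, and the intronic to exonic ratio fell by 2.35 on the log2 scale in shControl cells (± 0.22, adjusted p = 1.26e-07) and by 1.76 in shRNF113A cells (± 0.22, adjusted p = 1.28e-06), with each call held in 12 of 12 omissions of single libraries. Intronic read pairs of MXD1 numbered 131 to 174 in untreated and 95 to 277 in Cisplatin-treated shControl libraries. Its exonic reads ranged from 42 to 616 over all 12 libraries, and its exonic level rose from 0.355 ± 0.150 to 1.85 ± 0.605 RPKM in shControl cells. MXD1 shares 7888 bases with SNRNP27 on the same strand, and the part of this overlap in its intronic reads was not tested. In shControl cells MXD1 was the 1 member of 9 that changed, against 19.8% of the 9557 genes tested, and 1.25% of genes were called with a lower ratio. Without both replicate 2 libraries MAX (0.79, adjusted p = 0.00898) and MGA (0.77, adjusted p = 0.0207) passed as well, and without Cisplatin-treated replicate 2 alone 5 members passed, MAX, MXI1, MLX and MGA with higher ratios besides MXD1. In shRNF113A cells 4 of 9 members changed, against 70.3% of genes, and 0.649% of all genes tested were called with a lower ratio. MAX had a higher ratio there (1.35 ± 0.27, adjusted p = 0.000256), as had MNT (0.90 ± 0.18, adjusted p = 0.000236) and MGA (0.54 ± 0.23, adjusted p = 0.0375), whose call was lost in 5 of 12 omissions of single libraries. MLX had 0.39 ± 0.22 (adjusted p = 0.116) and passed without both shControl replicate 2 libraries (0.39, adjusted p = 0.0338).

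Upon depletion in Cisplatin-treated cells, 8 of 9 members changed, against 88.3% of all genes, and all 8 were called with a higher intronic to exonic ratio, as were 88.2% of genes, so the members followed the whole table. The median log2 change was 0.70 over the members and 0.96 over all genes. MNT had an intronic share of 24.6, 26.7 and 31.5% in Cisplatin-treated shControl cells and 44.2, 43.9 and 45.1% in Cisplatin-treated shRNF113A cells. MAX had 4.63, 2.77 and 6.62% and 8.64, 8.84 and 9.17% in the same conditions. Neither gene overlapped between these groups, and the changes were 1.07 ± 0.18 (adjusted p = 3.86e-05) and 1.02 ± 0.27 (adjusted p = 0.00149). The intronic reads of MNT numbered 287 to 537 without and 783 to 931 with depletion. MXD1 was the member without a called change, at −0.02 ± 0.21 (adjusted p = 0.924). MXI1 had 12 to 32 intronic reads a library, and its call (0.64 ± 0.29, adjusted p = 0.0462) was lost without both shControl replicate 2 libraries (0.46, adjusted p = 0.153), with the replicate block, without a minimum of 10 reads and in 8 of 12 omissions of single libraries.

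In untreated cells 6 of 9 members changed upon depletion, against 34.5% of all genes. MXD3 (0.65 ± 0.21, adjusted p = 0.0268), MXD4 (0.67 ± 0.20, adjusted p = 0.0209), MXI1 (0.86 ± 0.33, adjusted p = 0.0461), MLX (0.81 ± 0.23, adjusted p = 0.0147) and MGA (0.67 ± 0.24, adjusted p = 0.0391) had higher ratios. MXD1 was called with a lower one (−0.61 ± 0.24, adjusted p = 0.0485), as were 0.146% of genes, and without both shControl replicate 2 libraries its change was −0.37 (adjusted p = 0.159). No call was left without untreated shControl replicate 2, untreated shRNF113A replicate 1 or untreated shRNF113A replicate 2, although over all 12 omissions the changes stayed between 0.58 and 0.72 for MGA and between 0.56 and 0.82 for MXD3. Without both shControl replicate 2 libraries MXD3, MXD4, MLX and MGA passed, and MXI1 did not (0.86, adjusted p = 0.0564).

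**Figure D4:**
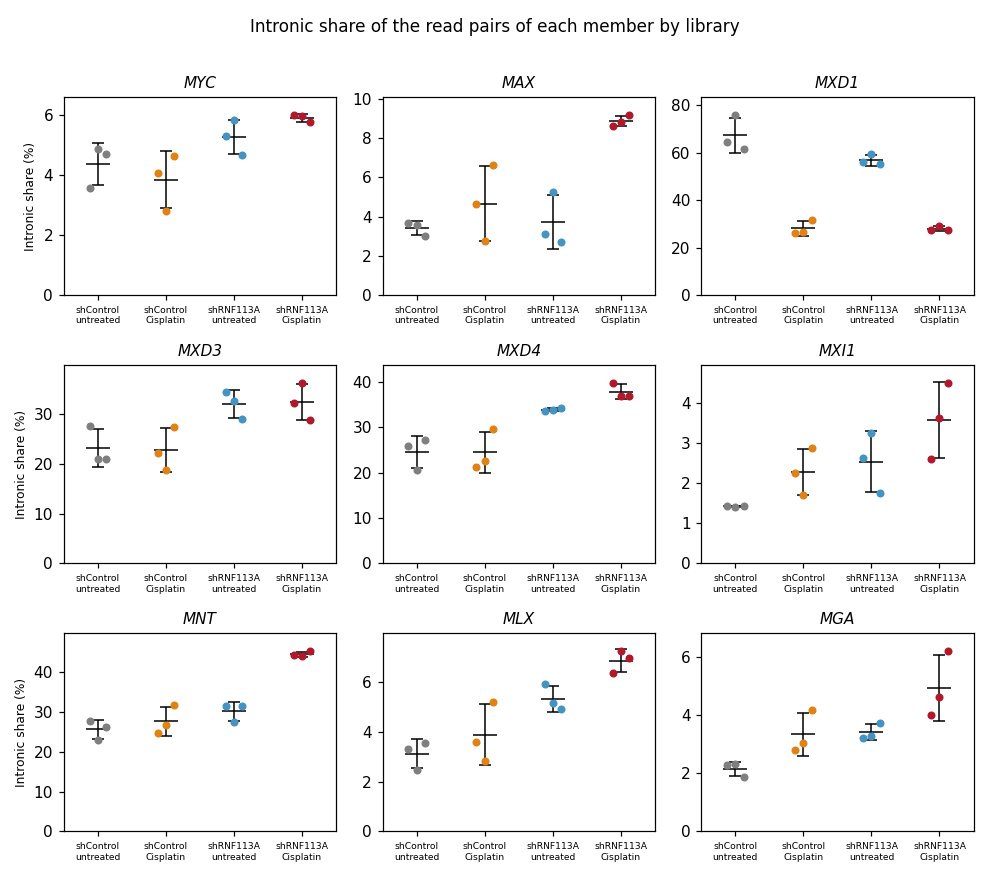
Intronic read pairs as a percent of all read pairs of each member (linear axes from 0 that differ between genes), by library, with the mean and SD of 3 libraries per condition. MXD1 lies between 26.4 and 31.7% in the Cisplatin-treated libraries and between 55.1 and 75.7% in the untreated ones, and MNT and MAX are highest in Cisplatin-treated shRNF113A cells.

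Splicing of the members was followed with the inclusion and skipping reads of the deposited event tables, which do not say which replicate each of the 3 values per condition came from. Between 29 and 43 events of the members could be tested in each of the 4 comparisons, and none was called by edgeR's quasi-likelihood test at an adjusted p under 0.05 with inclusion levels at least 20 percentage points apart. Some events could hardly meet that limit, such as the MLX intron described below, included at 1.71% in untreated shControl cells. For such events the absence of a call does not show unchanged splicing. The largest difference between mean inclusion levels was 18.65 percentage points, for a 627-base MGA exon (chr15:42034744-42035370) upon Cisplatin in shControl cells. That exon had 58.7 ± 8.03% without and 77.3 ± 11.9% with Cisplatin (adjusted p = 0.706, edgeR's quasi-likelihood test). In shRNF113A cells the largest difference of a member event upon Cisplatin was 16.95 points. At an unadjusted p under 0.05 there were 1 and 4 events upon Cisplatin in shControl and shRNF113A cells, and 2 and 6 upon depletion in untreated and Cisplatin-treated cells. Among all events of the 5 categories 0.0716 and 0.282% were called upon Cisplatin in shControl and shRNF113A cells, and 0.0596 and 0.182% upon depletion in untreated and Cisplatin-treated cells. On simulated counts with an assumed spread, the test at the adjusted p alone recovered 44 of 200 2-fold changes of retained introns. A change of that size in a member could thus have been missed, and recovery with the limit on inclusion levels was not simulated.

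An intron of MLX (chr17:40721625-40721999, plus strand) passed the adjusted p alone in both depletion comparisons, as did 19.7 and 28.2% of all retained introns in untreated and Cisplatin-treated cells. Its inclusion was 1.66, 1.44 and 2.02% in untreated shControl and 3.11, 2.43 and 3.32% in untreated shRNF113A cells (adjusted p = 0.0497). With Cisplatin it was 1.78, 0.912 and 2.45% against 4.53, 4.08 and 2.69% (adjusted p = 0.0177). The groups lay apart in both comparisons, at levels of a few percent.

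The 27-base MAX exon printed above, chosen for description after its values were seen, was included at 43.4, 40.3 and 39.9% in untreated and 44.7, 50.8 and 42.3% in Cisplatin-treated shControl cells. In shRNF113A cells the levels were 55.0, 42.1 and 41.7% without and 52.3, 51.3 and 62.4% with Cisplatin. The largest difference among the 4 comparisons tested, between Cisplatin-treated shRNF113A and shControl cells, was 9.37 percentage points (adjusted p = 0.702), so short and long MAX forms occurred side by side in every condition. A separate event of this exon, with another neighbouring exon, could be tested only upon depletion in Cisplatin-treated cells. There its inclusion was 100% in shControl and 97.7 ± 3.99% in shRNF113A cells, from 31 to 39 reads a library. The 30-base exons of MXI1 and MXD3 were mostly included, at 92.1 ± 1.87% and 99.0 ± 1.05% in untreated shControl cells. A separate event of the MXD3 exon, with another neighbouring exon, was tested upon depletion in untreated cells. There its inclusion was 94.3 ± 7.83% in shControl and 100% in shRNF113A cells, from 21 to 55 reads a library. A 90-base MLX exon (chr17:40720488-40720577) was included at 70.9 ± 2.38% in untreated and 68.5 ± 2.1% in Cisplatin-treated shControl cells, and at 73.2 ± 1.6% and 64.8 ± 4.73% in shRNF113A cells, and none of the 4 comparisons passed (adjusted p from 0.641 to 0.839).

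Other genes of the pathway were taken from lists, and their counts are given for Cisplatin and then for depletion, beside 66.8% of all genes called with a median of 0.03 and 47.5% with a median of −0.00. Of the 4 other network factors, MLXIPL rose with Cisplatin (0.53 ± 0.12, adjusted p = 0.00112), MLXIP and MYCL did not pass either test, and MYCN was not tested. Of 12 SIN3 corepressor genes, 4 rose and 5 fell with Cisplatin. SIN3B, a scaffold that MXD proteins bind, rose by 0.76 ± 0.07 (adjusted p = 2.48e-07) and its relative SIN3A fell by 0.43 (± 0.07, adjusted p = 9.95e-05). SIN3B was also higher upon depletion (0.44 ± 0.07, adjusted p = 0.000157), where 1 gene rose and 1 fell. Of 10 genes of the MGA complex, 3 rose and 4 fell with Cisplatin, among them CBX3, a chromodomain protein (−0.70 ± 0.06, adjusted p = 3.37e-07), and 2 fell upon depletion, YAF2 and RYBP.

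Of 22 MYC cofactors and turnover genes, 6 rose and 12 fell with Cisplatin. FBXW7, the ubiquitin ligase subunit that targets MYC for degradation, rose by 1.97 ± 0.09 (adjusted p = 4.75e-10), from 11.3 ± 1.62 to 43.4 ± 5.21 CPM in shControl cells. AURKA, a kinase that stabilizes MYC proteins, fell by 0.81 (± 0.08, adjusted p = 7.46e-07), and SKP2, another ligase subunit for MYC, by 0.71 (± 0.13, adjusted p = 0.000318). Upon depletion 3 rose and 4 fell, with KAT2A, an acetyltransferase recruited by MYC, higher by 0.79 ± 0.07 (adjusted p = 2.40e-06).

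Of 39 tested genes known to be activated by MYC, 15 rose and 10 fell with Cisplatin, and their median log2 change was 0.12. ODC1, the first enzyme of polyamine synthesis, rose by 0.60 ± 0.08 (adjusted p = 9.37e-06), as did RRP12, a ribosome assembly factor (0.89 ± 0.11, adjusted p = 6.52e-06). LDHA, a glycolytic enzyme, fell by 0.97 (± 0.10, adjusted p = 1.16e-06) and NPM1, nucleophosmin, by 0.93 (± 0.08, adjusted p = 3.61e-07). The list thus moved in both directions, as all genes did. Upon depletion 7 rose and 4 fell, with a median of 0.04, and ODC1 had the largest rise (1.00 ± 0.08, adjusted p = 6.61e-07), from 150 ± 21.2 to 328 ± 20.2 CPM in untreated cells.

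Of 8 tested genes known to be repressed by MYC, 5 rose and 1 fell with Cisplatin, a share called near that of all genes, with a median of 1.02. CDKN1A, a cell cycle inhibitor that p53 also activates, rose by 3.75 ± 0.23 (adjusted p = 8.51e-09), and GADD45A, likewise a p53 target, by 3.33 ± 0.20 (adjusted p = 6.57e-09). DDIT3, a stress-induced transcription factor, rose by 2.95 ± 0.31 (adjusted p = 1.97e-06) and was lower upon depletion (−1.36 ± 0.30, adjusted p = 0.00263). The gene that fell with Cisplatin was NDRG1 (−0.323 ± 0.135). Upon depletion 0 of the 8 genes rose and 2 fell, DDIT3 and NDRG2 (−1.07 ± 0.17). Of 5 tested targets of MLX partners, 2 rose and 2 fell with Cisplatin. TXNIP and ARRDC4, glucose-responsive arrestins named here after their values were seen because they lie under 10 CPM, rose by 2.14 ± 0.44 (adjusted p = 0.000706) and 2.04 ± 0.29 (adjusted p = 2.79e-05). The lipid synthesis genes ELOVL6 and ACACA fell by 1.85 (± 0.10, adjusted p = 2.41e-09) and 1.18 (± 0.12, adjusted p = 1.10e-06), and upon depletion FASN rose and ELOVL6 fell.

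Among the genes whose levels over the 12 libraries were most like that of MYC were TNFRSF21 and SLC22A5, with Pearson correlations of log2 CPM of 0.955 and 0.950 among 9778 genes. For MXD1 they were NOM1, CEP164 and TFIP11, with 0.989, 0.987 and 0.986 among 9779 genes. These values describe shared differences between the 12 libraries, within as well as between the 4 conditions, and are not tests.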

How the data were processed

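Stranded mRNA libraries were sequenced in paired ends and aligned to hg19 by the authors with STAR 2.5.2b. The deposited gene counts are numbers of read pairs, without normalization, beside HTSeq counts over exons and over whole genes. The event tables they deposited give inclusion and skipping read counts from rMATS, and 10 columns of inclusion levels in them were not used, nor were the authors' p-values. Levels per length used the union of exons of the authors' annotation.

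Counts on the strand of the gene were tested with edgeR 4.0.16 (R 4.3.3; TMM, filterByExpr, quasi-likelihood test, Benjamini-Hochberg over 15352 genes) on 12 libraries. Intronic reads were genic minus exonic reads, with at least 10 of each in every library, and events needed 20 reads. P-values set each mean difference against the residual spread between libraries, and the main fits held no term for the replicate number. On simulated data with 200 genes changed 2-fold, the tests recovered 167 for Cisplatin, 169 for depletion, 103 for the interaction and 132 for intronic ratios upon depletion in untreated cells. The spread in the simulation of intronic ratios was assumed and not estimated from the libraries. Equally numbered shControl libraries deviated from their condition means together across 9779 genes (r of 0.63, 0.73 and 0.48), whereas of the shRNF113A libraries those numbered 1 and 3 did and those numbered 2 did not (0.41, −0.07 and 0.30), and across the hairpins r lay between −0.20 and 0.23. Alternatives were unstranded counts, other scalings and filters, DESeq2 1.42.0, a replicate block and leaving out libraries. A fit without both shControl replicate 2 libraries, and a block within shControl cells, were chosen after seeing the data. Members, lists and tests were chosen with earlier results of these data known. All members and RNF113A are named, with up to 3 genes per list, direction and term that had the largest change among those past the test at a mean of at least 10 CPM, all other network factors, the 3 genes most like MYC and MXD1 (1 of them is not reported here), and the MLX intron with the smallest p of its gene.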

Additional observations from a re-analysis of the deposited data

Results flagged for a closer look

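The Cisplatin effect differed between shControl and shRNF113A cells for MLX, by an interaction of 0.34 on the log2 scale (adjusted p = 0.0411, edgeR's quasi-likelihood test), which was not called in 11 of 12 omissions of single libraries. It also differed for 4 genes of the MYC target lists, 1 of 39 tested activated and 3 of 8 tested repressed genes, where 4.25% of all genes passed. The interaction was −0.57 for LDHA, −1.25 for CDKN1A, −0.99 for GADD45A and −1.81 for DDIT3, so that the rises of the last 3 genes were smaller in shRNF113A cells and the fall of LDHA was larger. Groups of 3 libraries were too small for a test of single libraries that lie far from the others.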

How the results depend on the processing

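Of 1269 alternative values for the members' fold changes, 1093 kept their direction and side of the threshold, 91 lost and 35 gained the call and 50 changed sign, and of 560 for the intronic ratios 480 kept both, 57 lost and 9 gained the call and 14 changed sign. All changes of sign were in values that did not pass the test, and their cause was not tested. The count for the interaction, 1, was 0 with unstranded counts, library size scaling, median-ratio size factors, no filter on low counts and the replicate block, and 3 with DESeq2 and without both shControl replicate 2 libraries. Without those libraries it was 5 for depletion in untreated and 5 in Cisplatin-treated cells, and 3 for the intronic ratio upon Cisplatin in shControl cells. A fold limit of 2 left 2 members for Cisplatin, 3 in shControl and 2 in shRNF113A cells, and 0 for depletion, the interaction and depletion within either treatment. With at least 50 intronic and exonic reads 5 members could be tested, and 0, 1, 3 and 5 had a changed ratio upon Cisplatin in shControl and shRNF113A cells and upon depletion in untreated and Cisplatin-treated cells. MXD1, with as few as 42 exonic reads, was not among those tested, so its change upon Cisplatin was not examined under this setting.

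When single libraries were left out, 5 to 6 members passed for Cisplatin, 2 to 5 for depletion, 0 to 2 for the interaction, 4 to 6 and 4 to 7 for Cisplatin in shControl and shRNF113A cells, and 0 to 3 and 1 to 5 for depletion in untreated and Cisplatin-treated cells. Changed intronic ratios numbered 1 to 5 and 3 to 5 upon Cisplatin in these cells, and 0 to 6 and 6 to 8 upon depletion. No splicing event of the members was called under any alternative.

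With the replicate block the counts were 5 for Cisplatin, 4 for depletion, 0 for the interaction, 5 and 6 for Cisplatin in shControl and shRNF113A cells and 3 and 2 for depletion in untreated and Cisplatin-treated cells, and the intronic counts were 1, 4, 6 and 7. A block within shControl cells, where equally numbered libraries deviated together, changed no call for Cisplatin. The labels do not say that equal numbers mark pairs. Because replicate 2 stood apart in both shControl conditions, the correlations cannot show whether libraries numbered 1 and 3 are paired. No paired analysis was possible for splicing because the event tables do not number their libraries.

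Values changed sign as follows. With library size scaling, which moved the median Cisplatin change of all genes from 0.03 to 0.13, Cisplatin gave 0.066 for MXI1 over both kinds of cells, 0.077 in shControl and 0.056 in shRNF113A cells, and in shControl cells 0.097 for MNT and 0.036 for MLX. Depletion then gave 0.006 for MLX. MNT upon Cisplatin in shControl cells had 0.001 with unstranded counts, 0.006 without a filter, 0.002 with the replicate block and 0.065 without both shControl replicate 2 libraries. MGA upon depletion had −0.003 with unstranded counts, −0.014 with median-ratio size factors and with DESeq2, and −0.013 without both libraries. Without these, MXI1 had 0.008 upon Cisplatin and 0.077 in shControl cells, the interaction was 0.108 for MYC and −0.329 for MXD4, and the intronic changes upon Cisplatin in shControl cells were 0.088 for MYC and 0.06 for MXD3. With single libraries left out, MXI1 ranged from −0.057 to 0.011 upon Cisplatin, from −0.077 to 0.073 in shControl and from −0.098 to 0.002 in shRNF113A cells. MNT ranged from −0.028 to 0.035 upon Cisplatin in shControl cells, and upon depletion MLX from −0.069 to 0.02 and MGA from −0.057 to 0.068. The interaction ranged from −0.195 to 0.057 for MYC, −0.229 to 0.038 for MAX, −0.185 to 0.192 for MXD4 and −0.112 to 0.038 for MXI1. Intronic changes upon Cisplatin ranged in shControl cells from −0.371 to 0.005 for MYC, −0.222 to 0.146 for MXD3 and −0.211 to 0.128 for MXD4, and in shRNF113A cells from −0.1 to 0.142 for MXD3. Upon depletion they ranged from −0.223 to 0.288 for MAX in untreated and from −0.091 to 0.115 for MXD1 in Cisplatin-treated cells. Depth limited MXD1 in untreated cells, with 42 to 110 read pairs a library.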
